A study of Mus musculus with 4 samples.

Results

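The actin cytoskeleton and tubulin genes were followed in thymocytes at the double-positive stage, when developing T cells express CD4 together with CD8, after a short exposure to dexamethasone. They were chosen by gene symbol alone: actins, the Arp2/3 complex, actin-binding and capping proteins, crosslinkers, membrane linkers, myosins, tropomyosins, vimentin, tubulins and stathmin. The rule took 112 probe sets of 84 genes, out of 10833 probe sets of 8251 genes that named 1 gene on the array. It also caught Tpmt, a thiopurine methyltransferase whose symbol begins like that of a tropomyosin. The 6 actin control probe sets of the manufacturer were kept apart.

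Female mice of the C3H/HeN strain, 4 weeks of age, were the source of the thymocytes, which were isolated with microbeads. The treated group received 1e-07 M dexamethasone, a synthetic glucocorticoid, in PBS for 3 h, and the control group received medium with 0.1% PBS for the same time. Each group had 2 Affymetrix arrays, which the series describes as technical replicates at the level of the extract, so the p-values measure the spread between extracts. How many mice or wells stood behind an extract is not given in the sources used here.

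Actin monomers assemble into filaments that are nucleated by the Arp2/3 complex, trimmed by cofilin, capped at their ends, crosslinked into bundles and pulled on by myosin. Tubulin dimers of an alpha and a beta chain form microtubules, which stathmin destabilises. In T cells both networks serve migration and the contact with antigen-presenting cells, and both are taken apart during apoptosis, the known response of these thymocytes to glucocorticoids.

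Signals are MAS5 intensities in arbitrary units, and differences are given as log2(signal + 1), dexamethasone minus medium, which understates the change of dim probe sets. Controls for transcripts not added to the sample reached 14.0, and a signal at or under this value is called background. A probe set was tested where its mean log2 signal exceeded the 40th percentile of the array. It is said to have risen or fallen only where limma gave a Benjamini-Hochberg adjusted p under 0.05 over all 6707 probe sets tested. Signals of different probe sets are not compared, since each binds its target with its own strength. The number of arrays limits the precision.

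The arrays had median signals of 20.9 to 22.7 and correlated at 0.975 to 0.984 with each other (Pearson, log2 signals). Of the 9 genes listed as markers of double-positive thymocytes, 8 had a probe set, and all 11 of their probe sets lay above background on every array. Thymic epithelial markers were at background on every array in 6 of 6 probe sets. Of 16 probe sets for markers of fibroblasts, smooth muscle and endothelium, 2 were above background on every array. Of the B cell, myeloid and erythroid or platelet markers, 3 of 4, 2 of 10 and 1 of 3 probe sets were. The summed B cell signal was 125 and 126 for medium against 151 and 139 for dexamethasone, and the erythroid and platelet sum 110.1 and 108 against 123 and 116, so the treated arrays were higher in both lists. The part of other cells in the results was not tested. Hybridization controls, bacterial and phage transcripts spiked into the hybridization mix, were 1.37-fold higher on the dexamethasone arrays. Scaling to them moved the median log2 difference of all probe sets tested from -0.00 to -0.45, so every direction given here holds at the deposited scaling.

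Of the 112 member probe sets, 73 of 61 genes were bright enough to be tested. Among these 1 rose and 5 fell with dexamethasone. The rise is 1.37% of the tested members, beside 1.7% of all probe sets tested. The falls are 6.85% of the members, beside 1.8% of all probe sets. They include Smtn and Myoz1, which were at background with dexamethasone. These were bright enough to be tested only through their medium arrays, so they could enter the test only as falls. How many falls among all probe sets did the same was not counted. A probe set for Actb, beta-actin, rose. Those that fell belong to Tuba1a, an alpha tubulin; Tubb3, a beta tubulin; Tagln2, transgelin-2, an actin-bundling protein; Smtn, smoothelin, a protein of contractile smooth muscle; and Myoz1, myozenin-1, a protein of the muscle Z-disc.

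Most members moved little. The median log2 difference was 0.03 over the 73 tested members and -0.00 over all probe sets tested, with median absolute differences of 0.19 and 0.16. In 25 of the 73 both dexamethasone arrays lay above both medium arrays, against 23.9% of all probe sets, and in 20 they lay below, against 25.8%. At an unadjusted p under 0.05 in limma, 9 members (12.3%) were higher and 13 (17.8%) lower, beside 8.44% and 10.4% of all probe sets tested. The same shares are the background of the unadjusted counts given for each role. For the rises and falls counted by role or by probe set design, the background is 1.7% and 1.8% of all probe sets tested. RNA was taken from whole cultures, so fewer cells of a type and less RNA per cell cannot be told apart.

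**Figure D1:**
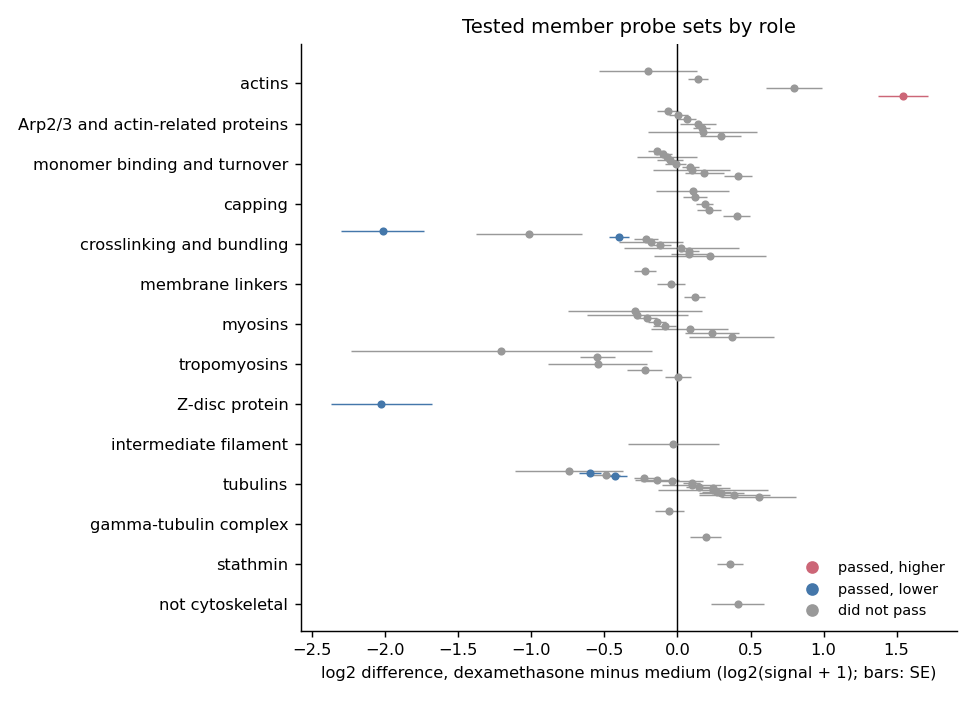
Log2 difference (dexamethasone minus medium, log2(signal + 1)) of the 73 tested member probe sets, 1 point each, grouped by role, with standard errors as bars. The 1 rise (Actb, 1.54) and the 5 falls (-0.40 to -2.03) are coloured, and most other points lie close to 0 at the deposited scaling; scaled by the hybridization controls, 70 of the 73 lie below 0.

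Of the 5 genes that fell, 4 are shown with the 250 bases before their RefSeq transcription start, on the gene's strand and with coordinates of GRCm38.p6, because they moved the same way. The table of promoters used here held 71 of the 84 member genes. It had no entry for Actb or Myoz1. Capitals mark CCAAT (or its reverse complement), the box bound by the factor NF-Y, and GGGCGG (or its reverse complement), the GC box bound by Sp1. The Tuba1a window is chr15:98953502-98953751 on the minus strand, that of Tubb3 chr8:123411303-123411552 on the plus strand, that of Tagln2 chr1:172499996-172500245 on the plus strand and that of Smtn chr11:3539293-3539542 on the minus strand.
Tuba1a: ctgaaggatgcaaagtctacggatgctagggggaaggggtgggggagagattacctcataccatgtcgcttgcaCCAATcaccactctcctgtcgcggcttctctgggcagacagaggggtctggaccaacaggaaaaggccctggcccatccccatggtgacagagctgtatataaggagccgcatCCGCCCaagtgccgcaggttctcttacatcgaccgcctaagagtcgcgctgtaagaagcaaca
Tubb3: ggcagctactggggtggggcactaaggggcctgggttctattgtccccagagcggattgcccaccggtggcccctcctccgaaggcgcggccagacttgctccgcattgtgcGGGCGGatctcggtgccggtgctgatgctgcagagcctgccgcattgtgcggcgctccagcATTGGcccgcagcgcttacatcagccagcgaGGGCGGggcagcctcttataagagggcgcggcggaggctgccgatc
Tagln2: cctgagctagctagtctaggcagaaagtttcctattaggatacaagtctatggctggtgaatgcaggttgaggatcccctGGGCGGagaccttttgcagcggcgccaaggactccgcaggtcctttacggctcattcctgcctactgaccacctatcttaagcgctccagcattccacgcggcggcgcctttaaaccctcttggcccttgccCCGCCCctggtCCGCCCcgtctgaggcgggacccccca
Smtn: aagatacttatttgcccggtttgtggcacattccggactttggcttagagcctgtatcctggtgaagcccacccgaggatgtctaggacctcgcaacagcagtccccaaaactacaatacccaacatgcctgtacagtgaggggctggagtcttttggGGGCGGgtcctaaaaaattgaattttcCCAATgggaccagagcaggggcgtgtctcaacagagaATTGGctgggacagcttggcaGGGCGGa

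All 4 windows held a GC box, which 35.4% of the 27025 genes in the table and 37 of the 71 member genes also held. CCAAT stood in those of Tuba1a, Tubb3 and Smtn, and in 37.5% of all genes and 28 of the 71 members. These motifs were searched after the members' values had been seen. The letters AGAACA, recognised by a single subunit of the glucocorticoid receptor, were in none of the 4 windows, against 10 of the 71 members and 18.2% of all genes. The full receptor element, a pair of such sites facing each other, was in 0 of the 71 and in 3 of the 27025. The CArG box, bound by serum response factor at many actin and muscle genes, was also in none of the 4, but in 8 of the 71 members (11.3%), against 1.62% of all genes. Of these 8, Acta1, Myl3, Myl6, Myl7 and Myl9 were at background on every array and Myh4 was dim. Actg1 and Arpc4 were well above background. All motifs were searched on both strands, and a match in such a window is a description of its letters only.

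One of the CArG boxes lies in the promoter of Actg1, cytoplasmic gamma-actin. It runs from -90 to -81 relative to the start and is in capitals in the stretch chr11:120348566-120348595, minus strand.
Actg1: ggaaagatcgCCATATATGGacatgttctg

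Among the actins the Actb rise was seen on a dim probe set. Probe set 101578_f_at had signals of 33.2 and 43.6 in medium and 121 and 105 with dexamethasone. The groups lay well apart, with a log2 difference of 1.54 ± 0.17 (SE, n = 2) and a limma adjusted p of 0.00790. The suffix of this probe set marks a design that matches a family of similar transcripts, and actins and their processed pseudogenes are near-identical, so which transcript gave the signal is uncertain. The other Actb probe set, 95705_s_at, was at 36.5 and 29.7 in medium and 65.8 and 50.9 with dexamethasone. Both dexamethasone arrays were higher, but the difference of 0.80 ± 0.19 did not pass (limma adjusted p = 0.0862).

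The actin controls differed less. These probe sets cover the 5′ end, the middle and the 3′ end of an Actb sequence, the GenBank record from which 101578_f_at was also designed. At the 5′ end the signals were 3222 and 3221 in medium and 3319 and 3294 with dexamethasone, a log2 difference of 0.04. In the middle they were 3463 and 3268, then 3712 and 3568, a difference of 0.11. At the 3′ end they were 3721 and 3413, then 4650 and 4093, a difference of 0.29. On all 3 the dexamethasone arrays were the higher ones, as on 23.9% of all probe sets tested, and the difference was smallest at the 5′ end. The controls were not part of the test.

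RNA integrity and labelling are tracked by dividing the 3′ signal by the 5′ signal of these controls, which gave 1.15 and 1.06 in medium and 1.40 and 1.24 with dexamethasone. This quotient was 1.19-fold higher with dexamethasone (exact permutation test, two-sided, p = 0.333, the smallest that 2 arrays against 2 allow). The same ratio for Gapdh was 0.838 and 0.845, then 0.904 and 0.823, and the groups overlapped. The part of RNA integrity in the Actb rise was not tested.

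Actg1 was at 2506 and 2472 in medium and 2627 and 2869 with dexamethasone. Both treated arrays were higher, but the difference of 0.14 ± 0.07 did not pass. Scaled by the hybridization controls it turned to -0.32 and passed as lower (limma adjusted p = 0.0205). Actg2, the gamma-actin of enteric smooth muscle, had overlapping groups (72.8 and 39.0, then 58.3 and 36.7). The muscle actins Acta1 and Acta2 were at background on every array.

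**Figure D2:**
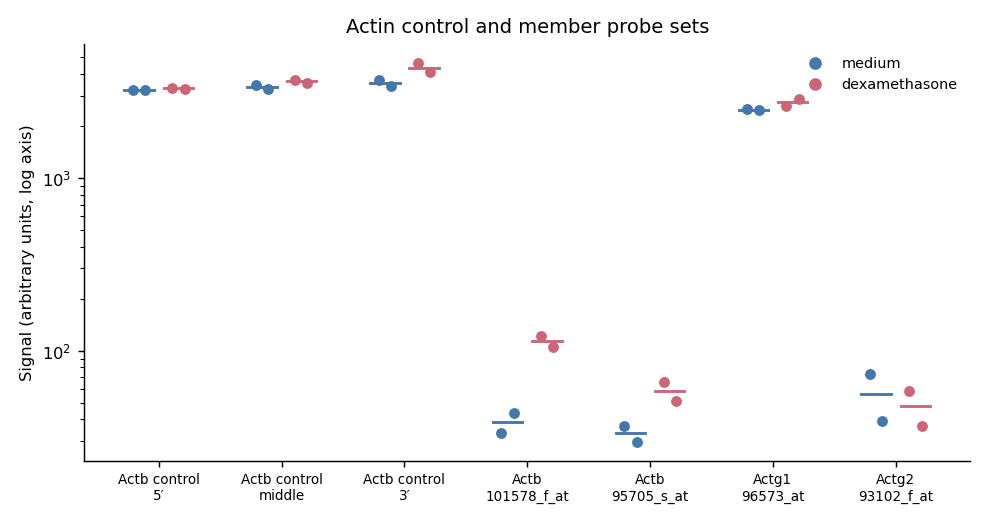
Signals (arbitrary units, log axis) of the 3 sense-strand Actb control probe sets, ordered from the 5′ to the 3′ end, and of the Actb, Actg1 and Actg2 member probe sets; points are single arrays and lines group means. The controls and Actg1 sit between 2472 and 4650 in both groups, while the 2 dim Actb probe sets sit between 29.7 and 43.6 in medium and between 50.9 and 121 with dexamethasone.

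Of the Arp2/3 complex and other actin-related proteins, 7 of 10 probe sets were tested and 0 passed in limma. At an unadjusted p under 0.05 there was 1 higher and 0 lower. The median log2 difference was 0.14, and 6 of the 7 were above 0, against 0 of 7 with scaling to the hybridization controls. Actr3, which encodes the Arp3 subunit that acts as a template for the new filament, was at 1451 and 1494 in medium and 1684 and 1618 with dexamethasone. The groups did not overlap, but the difference was small, 0.16 ± 0.06. The subunit genes Arpc1a, Arpc2, Arpc4 and Arpc5 had differences of -0.07, 0.01, 0.06 and 0.14. Arpc5l, an alternative form of the smallest subunit, was at 41.1 and 29.0, then 57.7 and 26.3, a difference of 0.17 ± 0.37 whose treated arrays span the medium ones. Actr6, a nuclear actin-related protein, differed by 0.30 ± 0.14.

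Proteins that bind monomers or turn filaments over gave 0 passing probe sets of 9 tested in limma, with 1 higher and 1 lower at an unadjusted p under 0.05. The largest difference was that of Tmsb10, thymosin beta-10, which sequesters actin monomers. The signals were 1865 and 1751 in medium and 2625 and 2206 with dexamethasone. Both treated arrays were higher, by 0.41 ± 0.09 on the log2 scale, without passing (limma adjusted p = 0.0760). Scaled by the hybridization controls it was -0.04. Tmsb4x, thymosin beta-4, differed by 0.09 ± 0.06.

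Cfl1, cofilin-1, which severs actin filaments, was at 1648 and 1644 in medium and 1497 and 1490 with dexamethasone, a difference of -0.14 ± 0.06. The groups were apart and tight, yet the limma adjusted p was 0.265. The muscle form Cfl2 differed by 0.18 ± 0.13. Coro1a, coronin-1A, which is needed for T cell migration and survival, was at 1852 and 1916, then 1720 and 1796, a difference of -0.10 ± 0.06. Its relatives Coro1b and Coro1c differed by -0.01 and -0.05, and the profilin genes Pfn1 and Pfn2, whose products feed monomers to growing filaments, by -0.07 and 0.10.

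The genes of capping proteins, which close the fast-growing filament end, were on the high side without passing. All 5 tested probe sets were above 0, at 0.10 to 0.41, against 0 of 5 with scaling to the hybridization controls, and 3 had an unadjusted p under 0.05 in limma, while 0 passed the adjusted threshold. Capzb, the beta subunit, was at 363 and 337 in medium and 432 and 498 with dexamethasone on 161329_f_at. It was at 831 and 904, then 1066 and 951, on 95142_s_at. Neither pair of groups overlapped, with differences of 0.41 ± 0.09 (limma adjusted p = 0.0750) and 0.22 ± 0.08. The alpha subunit genes Capza1 and Capza2 differed by 0.19 ± 0.06 and 0.12 ± 0.08. Capg, a capping protein of the gelsolin family, was close to background.

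Of 10 tested probe sets for crosslinking and bundling proteins, 2 fell and 0 rose. Tagln2 was at 693 and 670 in medium and 528 and 504 with dexamethasone. The arrays of each group lay close together and the groups apart, with a log2 difference of -0.40 ± 0.07 (n = 2, limma adjusted p = 0.0311). Smtn was at 47.3 and 31.6 in medium and 9.90 and 7.80 with dexamethasone. Both treated arrays were at background, so the fall is given as at least 2.82-fold, the mean medium signal over 14.0 (limma adjusted p = 0.0199). The smooth muscle relative Tagln was close to background in both groups, at 15.1 and 8.80, then 15.2 and 9.10.

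Lcp1, L-plastin, which bundles actin in leukocytes, was at 173 and 175 in medium and 148 and 151 with dexamethasone on 94278_at. The difference was -0.22 ± 0.08, and the dimmer 101327_at (19.6 and 22.2, then 6.90 and 13.8) lay in the same direction. Neither passed. Alpha-actinin genes, whose products crosslink filaments, were near 0: the 3 Actn1 probe sets lay between -0.18 and 0.08, and Actn4 was at -0.12 ± 0.08. The muscle forms Actn2 and Actn3 were at background on every array on 2 of their 3 probe sets, and the third, 162164_f_at, reached 14.2.

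Linkers between actin and the plasma membrane did not pass in limma (0 of 3, with 1 lower at an unadjusted p under 0.05). Msn, moesin, the main such linker of lymphocytes together with ezrin, was at 823 and 757 in medium and 650 and 703 with dexamethasone, a difference of -0.22 ± 0.08. Rdx, radixin, was at 344 and 358, then 390 and 372, a difference of 0.12 ± 0.07. Ezr, ezrin, had overlapping groups and a difference of -0.04 ± 0.10.

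Myosins held 27 probe sets, of which 8 were tested and 0 passed in limma, with 0 higher and 1 lower at an unadjusted p under 0.05. The non-muscle heavy chain gene Myh9 was at 1439 and 1450 in medium and 1290 and 1330 with dexamethasone on 100915_at. It was at 470 and 509, then 426 and 420, on 102108_f_at. Both probe sets were lower on both treated arrays, by 0.14 and 0.21 on the log2 scale, and neither passed. Myl12b, a regulatory light chain that partners with it, had overlapping groups and a difference of -0.09 ± 0.08. Myh14 and Myh4, the members of this role with the widest differences, were dim, at 0.37 ± 0.29 and -0.29 ± 0.46.

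Tropomyosins, which line actin filaments and govern access of myosin and cofilin, gave 0 passing probe sets of 5 tested in limma, with 0 higher and 1 lower at an unadjusted p under 0.05. Tpm4 was at 123 and 139 in medium and 83.1 and 95.4 with dexamethasone. The treated arrays were both lower, by 0.55 ± 0.12 on the log2 scale (limma adjusted p = 0.0679). Tpm1 was lower on both treated arrays too, at -0.23 ± 0.12. Tpm3 was at 179 and 174, then 186 and 168, on 93266_at, a difference of 0.00 ± 0.09. Its dim probe set 93265_at rests on 1 array: the second dexamethasone array was at 2.70 and the others between 23.8 and 42.5.

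Myoz1 was at 28.6 and 18.6 in medium and 5.60 and 4.30 with dexamethasone. Both treated arrays were at background, and the fall is at least 1.69-fold against 14.0 (limma adjusted p = 0.0339). Other muscle genes gave little signal in these cells. Of 25 probe sets for sarcomeric and smooth muscle myosins, actins and alpha-actinins, 21 were at background on every array. The smooth muscle markers Acta2, Myh11 and Cnn1 were at 4.80 or less on every array. The summed signal of the list for fibroblasts, smooth muscle and endothelium came to 247 and 207 on the medium arrays. It came to 267 and 248 on the treated ones, so the groups were apart only by 248 against 247. Most of each sum came from a Col1a2 probe set, at 169 and 138 in medium and 176 and 151 with dexamethasone, whose groups overlapped. The only other probe set of this list above background on every array was one for Col1a1. It was at 16.5 and 18.4 in medium and 33.5 and 38.2 with dexamethasone. Both treated arrays were higher there, as on 23.9% of all probe sets tested. The other Col1a2 probe set was at 4.0 or less on every array, and the other Col1a1 probe set at 3.1 or less. Whether the content of these cells differed was not tested. Vim, vimentin, the intermediate filament of mesenchymal cells, was near background at 13.6 and 13.8, then 16.9 and 10.6.

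**Figure D3:**
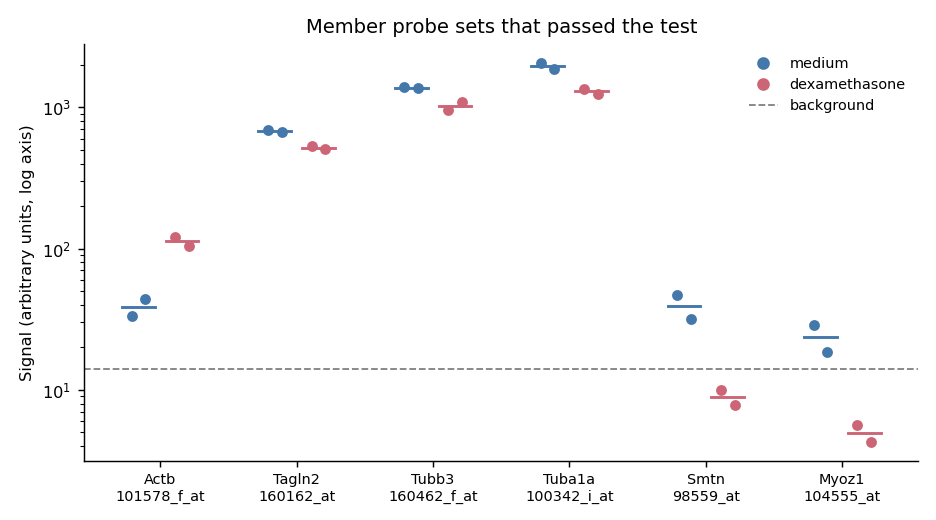
Signals (arbitrary units, log axis) of the 6 member probe sets that passed the test, ordered by log2 difference; points are single arrays, lines group means, and the dashed line is the background of 14.0. The groups do not overlap in any of the 6, which were picked by the test, nor in 49.7% of all probe sets tested. The treated arrays of Smtn and Myoz1 lie below the dashed line.

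Tubulins changed unevenly. Of 16 tested probe sets 2 fell and 0 rose, and log2 differences ran from -0.74 to 0.56 at the deposited scaling, with 9 above and 7 below 0; with scaling to the hybridization controls 15 were below 0. Tuba1a was at 2062 and 1872 in medium and 1345 and 1249 with dexamethasone on 100342_i_at. The groups were clearly apart, and the difference of -0.60 ± 0.08 had a limma adjusted p of 0.0127. Whether this probe set detects Tuba1a alone was not tested. The second Tuba1a probe set, 100343_f_at, comes from the same accession but matches the family. It was at 2819 and 2871, then 2308 and 2559, a smaller difference of -0.23 ± 0.07 that did not pass (limma adjusted p = 0.160).

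Tubb3, known mainly as a beta tubulin of neurons, was at 1388 and 1359 in medium and 957 and 1091 with dexamethasone on 160462_f_at. The difference was -0.43 ± 0.08, with a limma adjusted p of 0.0457. The probe set is of the family type and beta tubulins are very similar in sequence, so other isotypes may add to its signal. The second Tubb3 probe set, 161612_f_at, was dim (20.9 and 14.3, then 13.3 and 7.4) and lower on both treated arrays without passing.

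Tubb2a lay at the threshold. Its signals on 94835_f_at were 2659 and 2450 in medium and 1979 and 1666 with dexamethasone, a difference of -0.49 ± 0.10 (limma adjusted p = 0.0512). It passed in 8 of the 14 alternative settings, with adjusted p from 3.09e-12 to 0.300. The dim 161614_r_at for the same gene pointed the other way, at 17.7 and 17.9, then 32.7 and 21.7.

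The other bright tubulins, Tubb5 and Tuba1c, were level or higher at the deposited scaling. Tubb5, a main beta tubulin of dividing cells, was at 3979 and 3603 in medium and 4983 and 4182 with dexamethasone on 94789_r_at. Each treated array was the higher, by 0.27 ± 0.10, but quantile normalization gave 0.00 and the hybridization controls, used for scaling, gave -0.19. On 94788_f_at it was 0.10 ± 0.06. Tuba1c had overlapping groups at 3591 and 3199, then 3971 and 3543. Scaled by the hybridization controls, Tubb5 94788_f_at and Tuba1c turned to -0.36 and -0.31 and passed as lower (limma adjusted p 0.00448 and 0.0119). Tuba8 was at 66.7 and 70.9, then 80.2 and 83.0, a difference of 0.24 ± 0.11. Whether the fall of Tuba1a or Tubb3 differed from the values of the other isotypes was not tested.

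**Figure D4:**
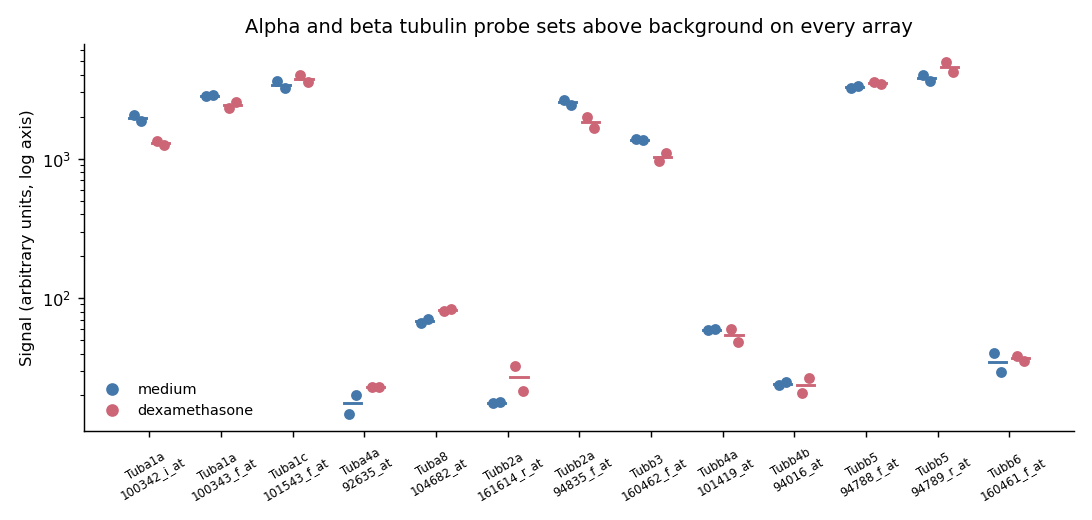
Signals (arbitrary units, log axis) of the alpha and beta tubulin probe sets above background on every array; points are single arrays and lines group means. At the deposited scaling both treated arrays lie below both medium arrays for the 2 Tuba1a probe sets, Tubb2a 94835_f_at and Tubb3 160462_f_at. They lie above them for both Tubb5 probe sets, Tuba8, Tuba4a and Tubb2a 161614_r_at. Of all probe sets tested, 25.8% were apart in this way on the lower side and 23.9% on the higher side. Among those named here, Tubb3 160462_f_at and a Tuba1a probe set passed the test as lower, and the others did not pass.

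The gamma-tubulin genes, whose products seed microtubules, were not among the calls: Tubg1 was at 158 and 139 in medium and 212 and 158 with dexamethasone, a difference of 0.30 ± 0.15. Tubgcp3 and Tubgcp4, of the gamma-tubulin complex, differed by -0.06 ± 0.10 and 0.19 ± 0.10. Stmn1, stathmin, was at 2861 and 2728 in medium and 3884 and 3315 with dexamethasone on 97909_at. Signals were higher on both treated arrays, by 0.36 ± 0.09, without passing (limma adjusted p = 0.0893), and the difference was -0.10 with scaling to the hybridization controls. The other Stmn1 probe set was at background. Tpmt, the gene outside the cytoskeleton, differed by 0.41 ± 0.18 and did not pass.

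Probe sets of the same gene did not always point the same way. Of 11 genes with more than 1 tested probe set, 7 had log2 differences of the same sign on all of them, and 4 (Actn1, Myl6b, Tpm3 and Tubb2a) did not. Actn1 92280_at was at -0.18 ± 0.22 and the dim Tpm3 93265_at at -1.21 ± 1.03. Both Myl6b probe sets and Tubb2a 161614_r_at were dim too. The part of the designs in this was not tested, and the share over all genes with several probe sets was not counted. The 18 probe sets with the family suffix included 14 that were tested, of which 1 rose and 1 fell. Of the 59 tested probe sets of other designs 0 rose in limma and 4 fell. At an unadjusted p under 0.05, 7 of the 59 were higher (11.9%) and 9 lower (15.3%), beside 8.44% and 10.4% of all probe sets.

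The regulators of both networks, from a list of 97 genes that includes those of filament nucleation, anchoring, tubulin folding and motors, gave 91 tested probe sets. Of these 0 rose and 2 fell in limma (2.20%, beside 1.8% of all probe sets), with a median log2 difference of -0.02. At an unadjusted p under 0.05 there were 3 higher (3.30%) and 14 lower (15.4%), beside 8.44% and 10.4% of all probe sets. Wipf1, which encodes the WASP-interacting protein that holds the nucleation factor WASP stable in T cells, was at 251 and 261 in medium and 173 and 176 with dexamethasone. The difference was -0.55 ± 0.08 (n = 2, limma adjusted p = 0.0199). Marcks, a membrane protein that binds actin and calmodulin, was at 484 and 495, then 331 and 368, a difference of -0.49 ± 0.08 (limma adjusted p = 0.0291). In both the groups were apart.

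These calls rest on all 4 arrays and on the variance trend of the fit. Without any 1 array 0 of the 5 falls passed, Myoz1 then being too dim to test without either medium array, and the Actb rise was lost without either dexamethasone array (limma adjusted p 0.0888 without the first and 0.0575 without the second, 1.11e-05 to 0.0888 over its 14 alternatives). The Wipf1 and Marcks calls were likewise lost without any 1 array. Over all probe sets tested the falls dropped from 121 to between 3 and 30 with an array left out. A fit without the trend called 0 members and 0 regulators, and 16 higher and 1 lower of all 6707 probe sets. With no filter on dim probe sets the Actb and Tuba1a calls were the 2 kept.

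With scaling to the hybridization controls 1 member rose and 37 fell (50.7%), beside 54 and 2865 of all probe sets tested (42.7% lower). All 5 falls and the Actb rise passed under this scaling too. It moved the median log2 difference of all probe sets tested to -0.45, so it is no check on the falls.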

How the data were processed

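The deposited table holds intensities on a linear scale made by the authors; the submitters' processing notes name MAS5, whose settings are not given in the sources used here, and detection calls were not used. The 2% trimmed mean was 100.06 to 100.07 on every array, a global scaling. Of 12488 probe sets, 66 controls, 396 naming several genes and 1193 naming none stayed out of the test. Among those naming several genes, 3 carried a member symbol. All 112 members matched the reference gene table.

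Values were taken as log2(signal + 1) and tested in limma (lmFit, then eBayes with its variance trend; limma 3.58.1, R 4.3.3), two-sided, fitted on all probe sets rather than 1 per gene because members are probe sets. The fit was also run on simulated data with independent noise and no shift between arrays. That run is not used as support for any call here. Promoters are from RefSeq, GRCm38.p6. Alternatives were 3 scalings, pseudocounts of 16 and 32, 2 filters, no trend, a replicate block, the brightest probe set per gene and leaving out each array. Members, lists and rules were chosen with earlier results of these data known. Named are all passing members and their sister probe sets, the brightest of each role, the 2 largest differences of roles without a pass and passing regulators; others were named after their values were seen.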

Additional observations from a re-analysis of the deposited data

Results flagged for a closer look

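The actin control probe sets were outside the test, and 4 of the 6 were above background with both dexamethasone arrays above both medium arrays. They were flagged for this same property, and both dexamethasone arrays were the higher ones in 23.9% of all probe sets tested. Their log2 differences were 0.29 at the 3′ end, 0.11 in the middle and 0.038 at the 5′ end of the sense strand, and 0.27 on the antisense 3′ probe set, whose signals were 22.5 and 21.3 in medium and 27.0 and 26.4 with dexamethasone.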

How the results depend on the processing

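At the deposited scaling 1 member rose and 5 fell. Higher members numbered 2 with the filter at the 60th percentile, 0 without the variance trend, 5 with the replicate block and 0 to 1 with an array left out. Lower members numbered 37 with scaling to the hybridization controls, 1 with no filter, 0 without the trend and 0 to 0 with an array left out. Lower regulators numbered 50, 1, 0 and 0 to 0 in the same order. At an unadjusted p under 0.05 in limma, 6 of 73 members were higher and 8 lower without the trend, beside 7.80% and 8.71% of all probe sets. All 6 calls were kept with the other 2 scalings, both pseudocounts and the replicate block, and 5 with the brightest probe set per gene, where Tubb2a passed and Tuba1a was represented by its other probe set. Over all probe sets 114 rose and 121 fell, or 90 and 166 after centring on array medians and 165 and 189 with the block. The labels do not pair the arrays, and deviations of same-numbered arrays correlated at 0.07. Under the block Actb 95705_s_at (0.80), Tmsb10, Stmn1 and Tubb5 94789_r_at also passed upwards, and Tpm4 and Tubb2a 94835_f_at downwards.

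Of the 39 members above 0 at the deposited scaling, 36 turned below 0 with scaling to the hybridization controls, and 7 of these passed as lower: Actg1, Actn1 104578_f_at, Arpc2, Arpc4, Tmsb4x, Tuba1c and Tubb5 94788_f_at. Among the members named by the rule, the turned differences were -0.32 for Actg1, -0.38 for Actn1 104578_f_at, -0.29 for Actr3, -0.15 for Actr6, -0.27 for Arpc5l, -0.050 and -0.24 for Capzb, -0.27 for Cfl2, -0.063 for Myh14, -0.34 for Rdx, -0.10 for Stmn1, -0.044 for Tmsb10, -0.45 for Tpm3 93266_at, -0.030 for Tpmt, -0.19 for Tubb5 94789_r_at and -0.26 for Tubgcp4. Centring on array medians gave -0.060 for Tpm3 93266_at. With each array left out in turn, differences that changed sign ran from -0.38 to 0.72 for Arpc5l, -0.98 to 0.40 for Myh4, -2.98 to 0.57 for Tpm3 93265_at, -0.069 to 0.076 for Tpm3 93266_at, -0.12 to 0.0092 for Tubgcp3 and -0.34 to 0.28 for Vim. The cause was not tested. With an array left out the lone array is assumed to vary like the other group. Smtn and Myoz1 were too dim to test with the stricter filter, and signal over background limits what can be said of the 39 members at background on every array.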
